A study of Mus musculus with 24 samples.

Results

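The cell cycle and DNA replication genes described here are 40 genes chosen by symbol from the 46318 gene IDs of the count files, 16 that act around the start and course of S phase and 24 that act in G2 and mitosis. They were measured by bulk RNA sequencing of mammary tumours from MMTV-PyMT mice, in which the mouse mammary tumour virus promoter drives the polyoma middle T oncogene in mammary epithelium. The libraries fall into 12 tumours labelled SHP KO, from mice with both Nr0b2 alleles disrupted (NR0B2-/- PyMT+), and 12 labelled SHP WT (NR0B2+/+ PyMT+). All of the tumours carry the oncogene, and each was taken when it reached 2000 mm3. Nr0b2 encodes the orphan nuclear receptor SHP. Age is not given, and neither is whether each tumour came from a separate mouse, so tests here speak of the variation among these samples, which may be partly technical. No treatment is named in the labels.

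The Nr0b2 reads, which were few, lay almost wholly on the side labelled KO, where the gene is disrupted. The libraries labelled KO held 182 reads of the gene, from 3 to 71 in each of the 12, and those labelled WT held 1 read in 1 of the 12. Why the reads lay there was not tested. KO and WT below therefore mean the libraries labelled KO and the libraries labelled WT, and every direction rests on those labels. Library totals ran from 18789250 to 38022182 counted reads. All 8 epithelium markers had reads in every library, with summed levels of 3762 to 10255 CPM in KO tumours and 4095 to 7727 CPM in WT tumours (CPM, read counts scaled to library size with TMM factors). Summed T cell markers ran from 9.69 to 105 CPM in KO and from 7.25 to 20.7 CPM in WT. Library KO 11 was highest of the KO tumours for T cell, B cell, macrophage, fibroblast, adipocyte, skeletal muscle and erythroid markers. Library KO 12 was lowest of them for fibroblast and adipocyte markers.

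A cell commits to division when cyclin-dependent kinases, with cyclin E among their partners, release E2F transcription factors, which switch on the genes of replication. Licensing factors load the MCM helicase at origins, and the fork then needs the clamp PCNA and a supply of nucleotides. Later, cyclin A and cyclin B with CDK1 drive G2 and mitosis, and the anaphase-promoting complex ends mitosis by marking cyclin B and securin for destruction. The mitotic genes are switched on mainly through the MuvB complex with B-Myb and FoxM1, which binds promoters at a CHR element, often with CCAAT boxes close by. In tumours the summed level of such genes is used as a gauge of how many cells are dividing. In bulk tissue, fewer dividing cells and less RNA in each dividing cell cannot be told apart.

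The promoters of the S phase and the mitotic genes held E2F and CHR letters in different shares. Promoters from RefSeq (build GRCm38.p6, which is not the GRCm39 build of the counts) were found for 33 of the 40 genes, 35 promoters in all, each from 250 bases before to 50 after the start. Exact matches on both strands were sought for E2F letters (TTTCCCGC, TTTCGCGC, TTTGCCGC or TTTGGCGC), for the CHR (TTTGAA) and for the CCAAT box (CCAAT). E2F letters stood in 6 of 15 S phase promoters and in 1 of 20 mitotic promoters (5.0%), against 2.26% of the 32851 promoters in the table. All 6 belong to origin licensing genes (Cdc6, Cdt1, Mcm3, Mcm5, Mcm6 and Mcm7). The promoters of Ccne1, E2f1, Mybl2, Pcna, Tyms, Rrm1, Rrm2 and Mcm2 held none. The CHR letters stood in 1 of 15 S phase promoters (6.67%) and in 15 of 20 mitotic promoters (75.0%), against 17.9% of all. CCAAT stood in 9 of 15 S phase and 18 of 20 mitotic promoters, against 37.4% of all, and the CHR together with CCAAT in 6.67% and 75.0%, against 6.95% of all. A match is only a match of letters, and E2F and CCAAT letters can overlap, as they do in a Mcm7 promoter.

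The following promoters were chosen because they carry these letters: the helicase subunits Mcm6 and Mcm3 with E2F letters, Cdk1 with all 3 kinds, and mitotic genes with the CHR and CCAAT. Each runs 5′ to 3′ on the gene's own strand over 180 bases, from 150 before the start, with GRCm38.p6 positions. Capitals mark the motif matches, and in Mcm6 the first run holds a pair of E2F matches that overlap on opposite strands.
Mcm6 (chr1:128359676-128359855, minus strand): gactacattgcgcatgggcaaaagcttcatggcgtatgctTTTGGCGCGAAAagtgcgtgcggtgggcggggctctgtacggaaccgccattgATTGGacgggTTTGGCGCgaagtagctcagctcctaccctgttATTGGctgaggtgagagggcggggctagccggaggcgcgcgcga
Mcm3 (chr1:20820283-20820462, minus strand): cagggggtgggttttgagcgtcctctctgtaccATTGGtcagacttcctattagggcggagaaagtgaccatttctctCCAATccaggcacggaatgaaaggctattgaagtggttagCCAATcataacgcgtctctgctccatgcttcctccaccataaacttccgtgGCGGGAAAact
Cdk1 (chr10:69352883-69353062, minus strand): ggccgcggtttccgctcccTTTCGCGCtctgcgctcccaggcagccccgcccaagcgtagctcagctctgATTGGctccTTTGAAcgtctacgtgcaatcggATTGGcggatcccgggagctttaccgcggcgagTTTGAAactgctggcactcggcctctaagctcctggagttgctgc
Mki67 (chr7:135716350-135716529, minus strand): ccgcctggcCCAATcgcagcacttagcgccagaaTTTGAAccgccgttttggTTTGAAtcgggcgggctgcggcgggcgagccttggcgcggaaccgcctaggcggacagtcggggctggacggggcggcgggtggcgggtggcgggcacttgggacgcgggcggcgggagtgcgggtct
Top2a (chr11:99024160-99024339, minus strand): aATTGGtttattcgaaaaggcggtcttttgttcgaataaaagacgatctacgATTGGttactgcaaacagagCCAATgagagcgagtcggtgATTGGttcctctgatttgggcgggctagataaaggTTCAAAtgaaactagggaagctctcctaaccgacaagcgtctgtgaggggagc
Ccnb2 (chr9:70421525-70421704, minus strand): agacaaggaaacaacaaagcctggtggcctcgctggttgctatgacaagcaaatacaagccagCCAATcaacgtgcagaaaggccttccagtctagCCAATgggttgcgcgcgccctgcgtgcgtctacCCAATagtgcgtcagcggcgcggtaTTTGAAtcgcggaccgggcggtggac
Cdc20 (chr4:118437314-118437493, minus strand): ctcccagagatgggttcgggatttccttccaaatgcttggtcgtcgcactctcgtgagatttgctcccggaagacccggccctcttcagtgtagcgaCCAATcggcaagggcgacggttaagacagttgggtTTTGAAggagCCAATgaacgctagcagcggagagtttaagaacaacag
Ube2c (chr2:164769779-164769958, plus strand): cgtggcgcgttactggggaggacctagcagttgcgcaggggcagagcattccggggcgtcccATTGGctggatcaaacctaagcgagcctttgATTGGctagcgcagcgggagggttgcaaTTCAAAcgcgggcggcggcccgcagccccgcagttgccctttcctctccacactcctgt

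For none of the 40 genes did the difference between KO and WT tumours pass the test used. All 40 passed the filter on low counts, and edgeR's quasi-likelihood test called 0 of them at an adjusted p of 0.05, against 0.316% of the 15820 genes tested. At an unadjusted p under 0.05 the count was also 0 of 40, where 18.9% of all genes tested fell. DESeq2 and limma voom likewise called 0, with 0 and 1 (Rrm2) at an unadjusted p under 0.05. The log2 changes, KO over WT, ran from -0.22 for Cenpf to 0.36 for Rrm2, and 20 of 40 were positive, where 51.3% of all genes were. The median was -0.02 for the 16 S phase genes and -0.02 for the 24 mitotic genes, beside 0.01 over all genes. The KO and WT ranges overlapped for all 40, and between 5 and 8 of the 12 KO tumours lay above the WT median of a gene. These counts have no share over all genes tested beside them, so they do not set the 40 genes apart.

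The precision bounds what these tumours could show. The standard errors ran from 0.12 for Pcna to 0.27 for Ccne1 on the log2 scale. Every 95% interval lay within a log2 change of 1 in either direction, the lowest bound being -0.66 for Kif23 and the highest 0.87 for Ccne1. The authors' deposited table compares the same libraries and is no separate evidence. All 40 genes are present there and none has an adjusted p under 0.05, the lowest being 0.324 for Rrm2. Its log2 changes differ from those here by 0.015 at most (Ube2c).

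**Figure D1:**
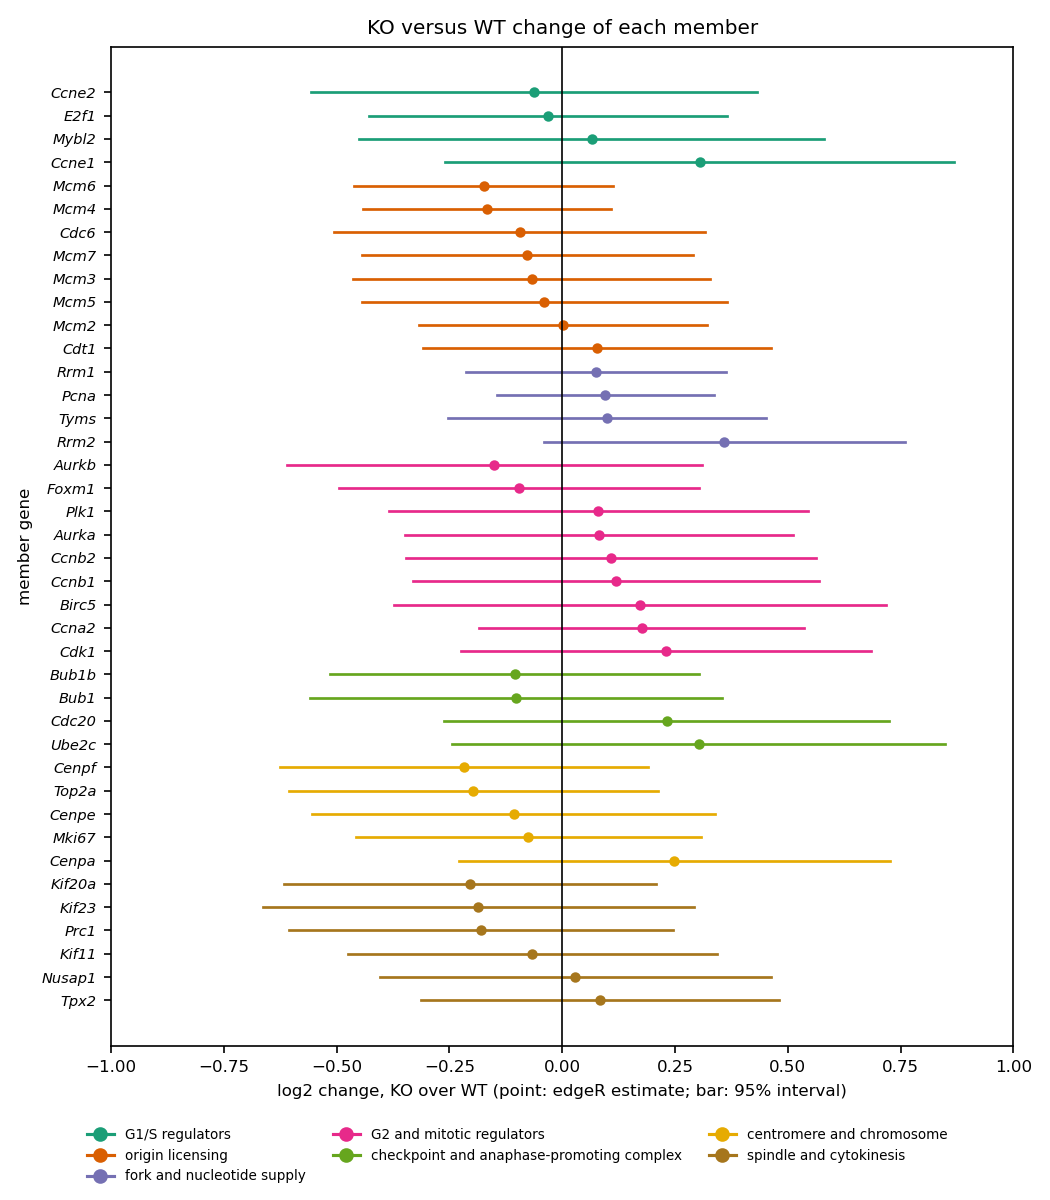
Log2 change, KO over WT, of each of the 40 genes (x axis, log2 scale), grouped by role in colour, with points for the edgeR estimates and bars for the 95% intervals (12 KO and 12 WT tumours). Every bar crosses 0; the estimates run from -0.22 for Cenpf to 0.36 for Rrm2.

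Mki67, which encodes the Ki-67 antigen that coats mitotic chromosomes and is the usual pathology marker of proliferation, had 218, 319 and 460 CPM as its lowest, median and highest KO values, against 127, 336 and 590 CPM in WT. The lowest and the highest of the 24 tumours were both labelled WT, and the KO tumours lay between them. The log2 change was -0.07 ± 0.19 (SE; 95% interval -0.46 to 0.31, edgeR adjusted p = 0.848), with 6 of 12 KO tumours above the WT median. The order of the tumours from low to high began with WT 13, WT 20 and KO 3 and ended with KO 2, WT 23 and WT 18. The gene lies on chromosome 7 (135291513 to 135318286, minus strand, GRCm39).

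Among the G1/S regulators, Ccne1 (chromosome 7, 37797409 to 37806915, minus strand), the cyclin E1 that opens S phase with CDK2, had 5.58, 11.51 and 35.7 CPM in KO tumours (lowest, median, highest), against 4.42, 10.3 and 16.7 CPM in WT tumours. A lone tumour, KO 12, held the highest value, more than any WT tumour, and the other KO values lay within the WT range. The change was 0.30 ± 0.27 on the log2 scale (edgeR adjusted p = 0.55), 0.04 without KO 12 and 0.39 without WT 22. Its partner gene Ccne2, cyclin E2, was the lowest of all 40 genes per length, at a mean of 1.54 RPKM in KO and 1.61 RPKM in WT (RPKM, CPM per kilobase of exon). That rank is uncertain, as 53.2% of its exon bases are shared with Ints8 on the opposite strand and counting used no strand. E2f1, an activator of replication genes, had a log2 change of -0.03 and Mybl2, the B-Myb partner of MuvB, one of 0.07 (edgeR adjusted p = 0.945 and 0.906).

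The 8 origin licensing genes were estimated between -0.17 and 0.08 on the log2 scale, and 2 of 8 were positive. Mcm6 (chromosome 1, 128259312 to 128287442, minus strand), a subunit of the replicative helicase and the one of highest level per length, had 73.1, 116 and 181 CPM in KO tumours, against 87.7, 122 and 179 CPM in WT. The groups covered nearly the same range, with 5 of 12 KO tumours above the WT median. The log2 change was -0.17 ± 0.14 (95% interval -0.46 to 0.11, edgeR adjusted p = 0.498). Mcm2, another subunit of the same ring, averaged 58.5 ± 15.1 CPM in KO and 58.4 ± 16.4 CPM in WT (SD, n = 12 each), a log2 change of 0.00 ± 0.16. The loaders Cdc6 and Cdt1 had log2 changes of -0.09 and 0.08. Mcm4, also of the ring, had 44.1, 58.3 and 72.5 CPM in KO tumours, against 42.2, 59.4 and 101 CPM in WT (log2 change -0.17 ± 0.13, edgeR adjusted p = 0.50). Its KO values stopped well short of the highest WT tumours, and its medians were alike. With chromosome medians as offsets its log2 change was -0.08.

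The 4 genes of fork and nucleotide supply had positive estimates that did not pass the test, from 0.08 to 0.36 on the log2 scale and from -0.06 (Tyms) to 0.22 (Rrm2) without KO 12. Pcna (chromosome 2, 132091206 to 132095100, minus strand), the sliding clamp and the highest of the 40 genes per length (mean 92.7 RPKM in KO, 86.7 RPKM in WT), had 90.4, 111 and 187 CPM in KO tumours, against 71.1, 109 and 137 CPM in WT. Its medians were within 2 CPM of each other, and only KO 12 exceeded the WT range. The log2 change was 0.10 ± 0.12 (edgeR adjusted p = 0.668), 0.01 without KO 12, 0.13 without WT 18 and -0.04 with length offsets.

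Rrm2 (chromosome 12, 24758253 to 24764145, plus strand), the small subunit of ribonucleotide reductase and its cell cycle regulated one, had 50.6, 73.7 and 160 CPM in KO tumours, against 26.4, 68.1 and 89.7 CPM in WT. It had the smallest p of the 40 genes: 0.36 ± 0.19 on the log2 scale, p = 0.0766, edgeR adjusted p = 0.313, with 7 of 12 KO tumours above the WT median. Without KO 12, its highest tumour, the change was 0.22, and without WT 18, its highest WT tumour, it was 0.42. The large subunit Rrm1 had a log2 change of 0.08 and thymidylate synthase, Tyms, one of 0.10 (edgeR adjusted p = 0.787 and 0.766).

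Among the genes of centromere and chromosome, Top2a (chromosome 11, 98883773 to 98915037, minus strand), the topoisomerase that untangles sister chromatids, had 123, 211 and 264 CPM in KO tumours, against 85.6, 210 and 409 CPM in WT. The medians coincided, while the WT tumours reached both lower and higher. The log2 change was -0.20 ± 0.20 (edgeR adjusted p = 0.596). Cenpf (chromosome 1, 189372803 to 189420302, minus strand), an outer kinetochore protein, had 37.4, 53.3 and 72.1 CPM in KO tumours and 24.1, 54.1 and 116 CPM in WT tumours, a log2 change of -0.22 ± 0.20 (edgeR adjusted p = 0.555). The KO values of Cenpf lay wholly inside the WT range. Without WT 23 the log2 change was -0.08 for Top2a and -0.10 for Cenpf, and without WT 13, the lowest WT tumour, it was -0.27 and -0.30. Cenpa, the centromeric histone, was estimated the other way, at 0.25 ± 0.23, at 0.03 without KO 12 and at 0.34 without WT 23. Cenpe, the motor that carries chromosomes to the spindle equator, had 23.3, 44.9 and 56.9 CPM in KO tumours, against 17.3, 41.2 and 105 CPM in WT. Its log2 change was -0.11 ± 0.22, 0.07 without WT 23 and -0.19 without WT 13.

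Of the 9 G2 and mitotic regulators, 7 had positive estimates with all tumours, 2 (Ccna2 and Cdk1) without KO 12 and 9 without WT 23, and none passed the test. Ccna2 (chromosome 3, 36619014 to 36627187, minus strand), cyclin A2, had 58.7, 97.5 and 132 CPM in KO tumours, against 36.0, 84.2 and 141 CPM in WT, a log2 change of 0.18 ± 0.17 (edgeR adjusted p = 0.59). For Cdk1 (chromosome 10, 69170976 to 69188742, minus strand), the kinase that starts mitosis, KO tumours had 48.5, 83.0 and 185 CPM and WT tumours 25.5, 70.9 and 118 CPM, a log2 change of 0.23 ± 0.22 (edgeR adjusted p = 0.576). Again a lone KO tumour, KO 12, exceeded the WT range of Cdk1, and without it the change was 0.06. Without WT 23 the change was 0.31. The other 7, which include the mitotic kinases Plk1, Aurka and Aurkb, the B cyclins, the transcription factor Foxm1 and the passenger protein gene Birc5, had log2 changes of -0.15 to 0.17. Birc5, which encodes survivin, had 23.9, 40.2 and 135 CPM in KO tumours, against 14.7, 40.1 and 86.1 CPM in WT. Its highest tumour was KO 12, and its log2 change of 0.17 ± 0.26 was -0.10 without that tumour and 0.32 without WT 23. Aurkb, the kinase of the same passenger complex, had 15.4, 27.2 and 45.8 CPM in KO tumours, against 12.7, 26.5 and 67.0 CPM in WT. Its log2 change was -0.15 ± 0.22, 0.02 without WT 23 and -0.22 without WT 13. The medians of both genes were alike in KO and WT, while their lowest and highest values differed. Without WT 13 the log2 change of Birc5 was 0.09.

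At the checkpoint and the anaphase-promoting complex, Ube2c (chromosome 2, 164611849 to 164614822, plus strand), the ubiquitin-conjugating enzyme of that complex, had 41.2, 61.5 and 219 CPM in KO tumours, against 20.6, 56.1 and 108 CPM in WT. The value of 219 CPM is that of KO 12, and the other 11 KO tumours lay inside the WT range. The log2 change was 0.30 ± 0.27 (edgeR adjusted p = 0.54), 0.01 without KO 12 and 0.41 without WT 23. Cdc20, the activator of the complex, had a log2 change of 0.23, of 0.02 without KO 12 and of 0.33 without WT 23. The checkpoint genes Bub1 and Bub1b had -0.10 and -0.11.

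For spindle and cytokinesis, Tpx2 (chromosome 2, 152689859 to 152737241, plus strand), which activates Aurora A on the spindle, had 52.2, 84.0 and 128 CPM in KO tumours, against 29.1, 77.5 and 132 CPM in WT. Its log2 change was 0.08 ± 0.19 (edgeR adjusted p = 0.834), 0.00 without KO 12 and 0.18 without WT 23. The kinesin gene Kif20a (chromosome 18, 34757677 to 34766330, plus strand) had 6.70, 12.4 and 18.96 CPM in KO and 7.08, 12.3 and 25.2 CPM in WT. Its log2 change was -0.21 ± 0.20 (edgeR adjusted p = 0.583), -0.10 without WT 23 and -0.27 without WT 13. For both genes the KO and WT tumours overlapped over most of their range. Kif11, Kif23, Prc1 and Nusap1, motors and bundling proteins of the spindle, had log2 changes of -0.19 to 0.03. Kif23, needed for cytokinesis, had 13.4, 20.9 and 31.1 CPM in KO and 9.32, 20.3 and 56.2 CPM in WT. Its log2 change was -0.19 with all tumours, -0.01 without WT 23 and -0.27 without WT 13. Of the Kif20a exon bases, 60.6% are shared with Cdc23 on the opposite strand, and of those of Ccne2 53.2% are shared with Ints8. Counting used no strand, so these levels are uncertain. Smaller shares, of 11.2% or less, touch Ccna2, Aurka, Mcm7, Nusap1, Prc1, Cdc20, Foxm1 and E2f1.

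**Figure D2:**
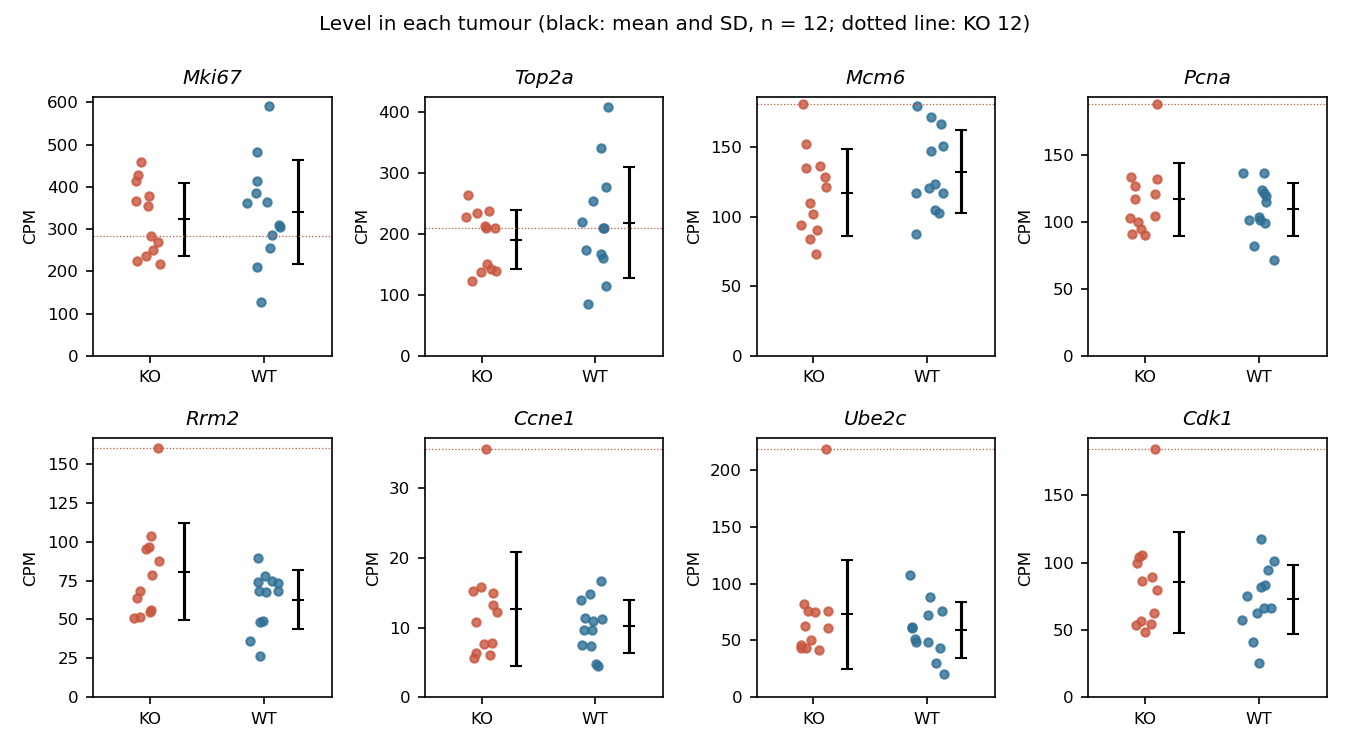
Level in CPM (y axis, from 0) of 8 of the genes in each of 12 KO (left) and 12 WT (right) tumours, with black bars for mean and SD and a dotted line at KO 12. KO 12 is the highest tumour for Pcna, Rrm2, Ccne1, Ube2c, Cdk1 and Mcm6, at 219 CPM for Ube2c, but at 284 CPM lies below the KO median of 319 CPM for Mki67.

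The tumours differed widely within each group, and the 40 genes moved largely together from tumour to tumour. Centred on the mean of all 24 libraries, the median over the 24 mitotic genes ran from -0.55 in KO 11 to 0.68 in KO 12 among KO tumours, and from -1.26 in WT 13 to 1.00 in WT 23 among WT tumours (log2 CPM). The highest over the lowest tumour came to 2.35-fold in KO and 4.79-fold in WT. For the 16 S phase genes the same median ran from -0.57 in KO 9 to 0.91 in KO 12, and from -0.99 in WT 13 to 0.55 in WT 18. WT 13 was below the mean for all 40 genes and the lowest of the 24 tumours for 35 of them. WT 23 was the highest WT tumour for 22 of the 24 mitotic genes and for 6 of the 16 S phase genes, and WT 18 for 7 S phase genes.

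**Figure D3:**
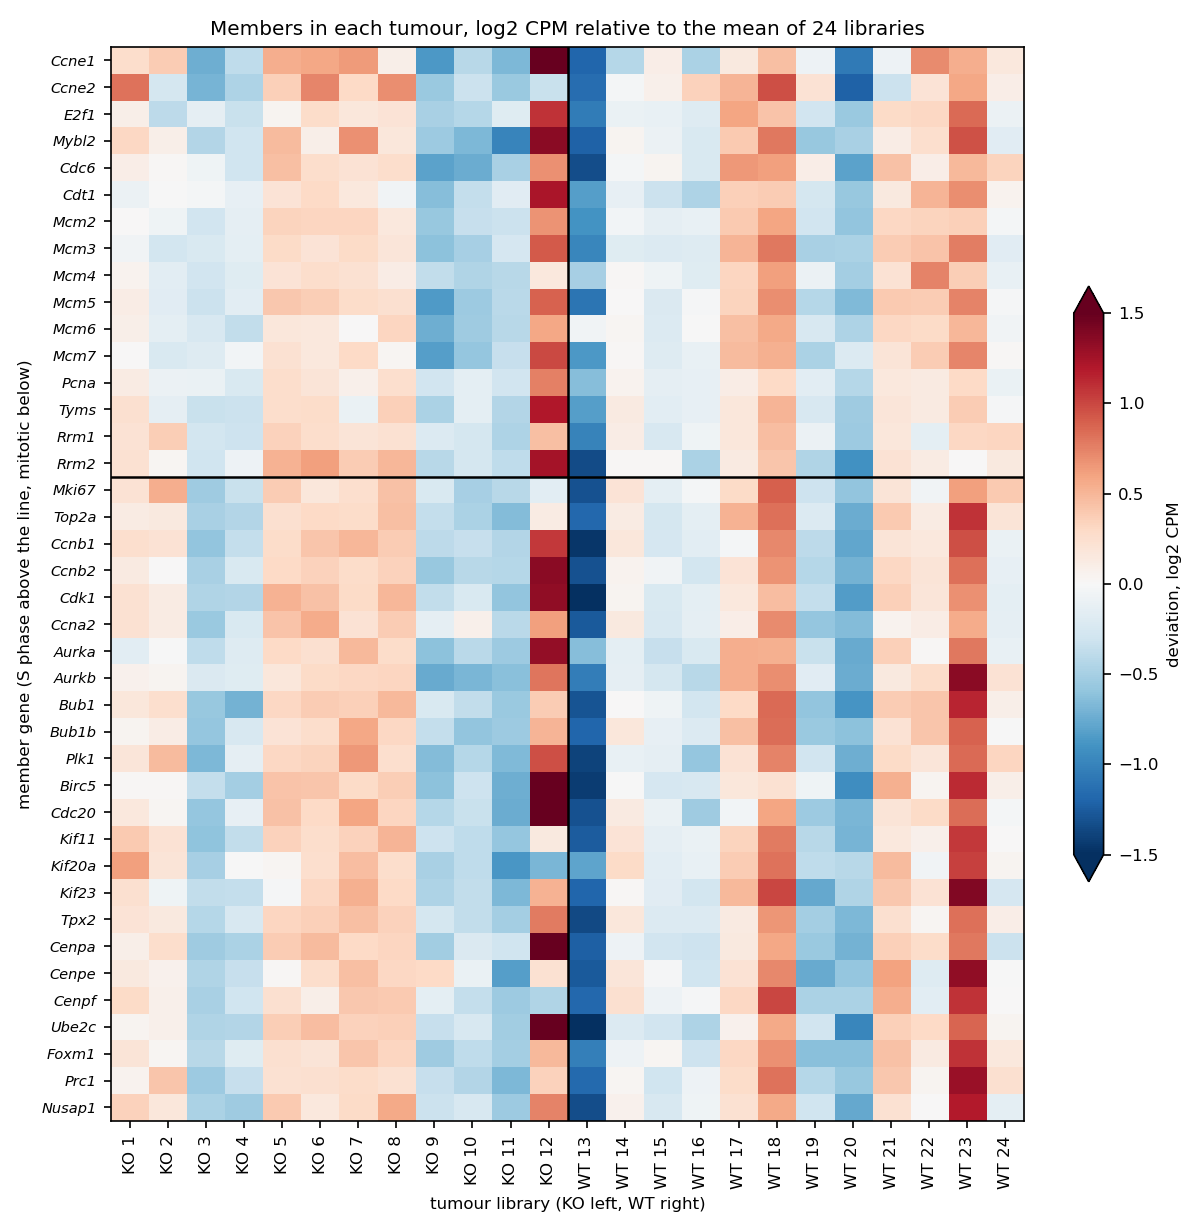
Heat map of the 40 genes (rows, S phase above the line, mitotic below) in the 12 KO (left) and 12 WT (right) tumours; colour gives the deviation in log2 CPM from the gene's mean over 24 libraries, cut at 1.5 in either direction. WT 13 is blue for all 40 genes, WT 18 and WT 23 are red through most rows, and KO 12 is deep red in Ube2c and Ccne1 but blue in Kif20a, Cenpf, Ccne2 and Mki67.

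The S phase and mitotic genes were nearly in step within a tumour. The mitotic minus the S phase median lay between -0.23 in KO 12 and 0.23 in KO 2 in KO tumours, and between -0.26 in WT 13 and 0.48 in WT 23 in WT tumours (log2). WT 23 therefore stood out for its mitotic genes, as its S phase median of 0.52 lay close to the 0.55 of WT 18. Across the 12 tumours of a group, the median correlation of pairs of genes was 0.884 among S phase genes, 0.848 among mitotic genes and 0.831 between the 2 kinds in KO, and 0.867, 0.947 and 0.90 in WT. These correlations share libraries and are given as descriptions.

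**Figure D4:**
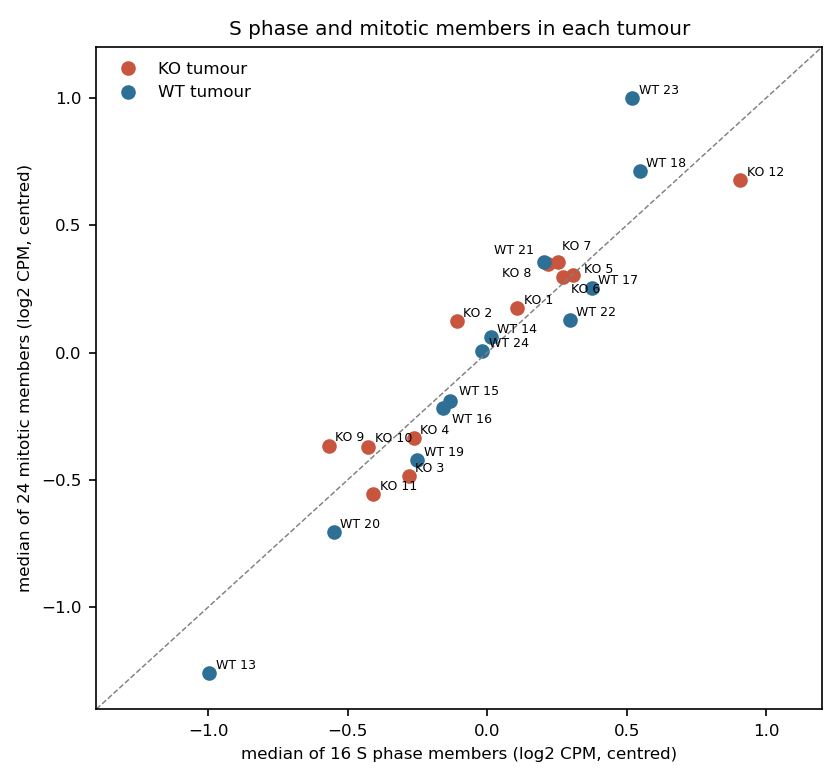
Median of the 16 S phase genes (x axis) against the median of the 24 mitotic genes (y axis) in each tumour, both in log2 CPM centred on the 24 libraries, with the dashed line at equality. The tumours lie along the line from WT 13 (-0.99, -1.26) upward; WT 23 (0.52, 1.00) lies farthest above it, and WT 13 and KO 12 (0.91, 0.68) lie farthest below it.

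Mki67 varied together with Top2a across tumours. Pearson's r was 0.897 in KO (Spearman's rho 0.839) and 0.947 in WT (rho 0.944), with permutation p = 0.00033 and 2e-05, n = 12 tumours each, and p = 0.00066 and 6.67e-05 after Benjamini-Hochberg adjustment over the 10 relations computed. Without the pair of tumours farthest from the Mki67 median, r was 0.927 in KO and 0.924 in WT. Mcm5 with Mcm2, neighbours in the helicase ring, gave 0.988 in KO and 0.978 in WT (rho 0.986 and 0.93; permutation p = 1e-05 each, the smallest that 100000 resamples can give, adjusted p = 5e-05). Without the farthest 2 tumours these were 0.975 and 0.985.

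Between the mitotic and the S phase genes, Mki67 with Mcm2 gave r = 0.539 in KO (rho 0.601, permutation p = 0.073 and 0.0432, adjusted p = 0.104 and 0.0617) and r = 0.905 in WT (rho 0.874, permutation p = 6e-05 and 0.00039, adjusted p = 0.00015 and 0.000975). The farthest 2 tumours left out, r was 0.599 in KO and 0.776 in WT. Without KO 12 the KO value was 0.744 (adjusted permutation p = 0.0183). The difference between the groups was not tested.

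Levels of an epithelial and a leukocyte gene were set beside Mki67 in the same way. Epcam, an epithelial adhesion gene, gave r = -0.30 in KO and -0.27 in WT (rho -0.462 and -0.385; permutation p = 0.336 and 0.403, adjusted p = 0.373 and 0.403), and -0.287 and -0.207 without the farthest 2 tumours. Epcam does not stand for the 8 epithelium markers, whose median r with Mki67 was 0.147 in KO and -0.00766 in WT. In KO 6 of the 8 were positive and Epcam was the lowest, and in WT 3 were positive. Ptprc, which encodes the leukocyte antigen CD45, gave r = -0.435 in KO (rho -0.559, permutation p = 0.165, adjusted p = 0.206) and -0.64 in WT (rho -0.692, permutation p = 0.0264, adjusted p = 0.0441). Without the farthest 2 they were -0.42 and -0.687. The WT relation passed the threshold of 0.05 with all 12 tumours but in only 6 of 17 other settings. It did not pass with chromosome medians removed (r = -0.606) or without WT 13 and WT 23 (r = -0.574). It also did not pass in 9 of the 12 fits that each left out a single tumour (adjusted permutation p from 0.0363 to 0.104), and passed without WT 14, WT 16 or WT 19. T cell markers had a median r with Mki67 of -0.583 in KO and -0.596 in WT, where all genes tested had -0.012 and -0.03. Other marker lists also had negative medians: macrophages -0.418 in KO and -0.455 in WT, B cells -0.638 and -0.12, adipocytes -0.0962 and -0.546. Only 2 of the 6 B cell markers, Cd79b and Pax5, passed the filter, and summed B cell levels were highest in KO 11 and KO 10 (200 and 102 CPM). Skeletal muscle markers had 0.108 in KO and -0.577 in WT, and erythroid markers 0.0151 and -0.533. Endothelium markers had 0.158 and 0.0492, and fibroblast markers -0.0813 and -0.204. Their part in the levels of the 40 genes was not tested.

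Whether WT tumours spread more widely depended on single libraries. The SD of log2 CPM was larger in WT than in KO for 19 of 24 mitotic and 10 of 16 S phase genes, together 29 of 40, where this held for 42.7% of all genes tested. Median SDs of the mitotic genes were 0.45 in KO and 0.62 in WT, and those of the S phase genes 0.46 and 0.49. For Mki67 the SD was 0.39 in KO and 0.58 in WT, a difference of -0.19 that a two-sided permutation test did not separate from 0 (p = 0.353, n = 12 each). The WT tumours 13, 18 and 23 held the extremes. Without WT 13 the Mki67 difference was -0.03. The count of 29 genes became 16 of 40 without WT 13, against 40.5% of all genes, and 39 of 40 without KO 12, against 65.1% of all genes.

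KO 12 stood apart by gene length. Its deviations fell by 0.34 log2 units for each doubling of exon length over all genes tested, where the slopes of the other 23 libraries lay between -0.04 and 0.10. The 12 genes of the set shorter than 2500 bases had a median deviation of 1.29 in KO 12 and the 6 of at least 5000 bases one of 0.18, while in WT 23 these medians were 0.81 and 0.85. KO 12 was the highest KO tumour for 28 of the 40 genes, 14 of them S phase and 14 mitotic, and the highest of all 24 tumours for 22. The longest of the genes, Cenpf (11365 bases) and Mki67 (10257 bases), deviated by -0.45 and -0.15 there, and the shortest, Ube2c, by 1.89. The other 4 of at least 5000 bases were all positive, Tyms the highest of them, Cdc6 at 0.69, Cenpe at 0.23 and Top2a at 0.13, and the lowest deviation was -0.69, for Kif20a (3905 bases). Its summed epithelium markers were also the highest of the 24 libraries, at 10255 CPM.

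The KO over WT change varied with length as well. Over the 40 genes Spearman's rho between the log2 change and exon length was -0.587, where it was -0.339 over all genes tested, and for the deviations of KO 12 alone it was -0.638. From differences in mean log2 CPM without KO 12 it was -0.359, beside -0.202 over all genes. With the length trend of each library as an offset, rho was -0.198, the median change -0.04 for S phase and -0.01 for mitotic genes, and the log2 change of Ube2c was 0.06 in place of 0.30. Genes within one fit share libraries, so these values carry no p.

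**Figure D5:**
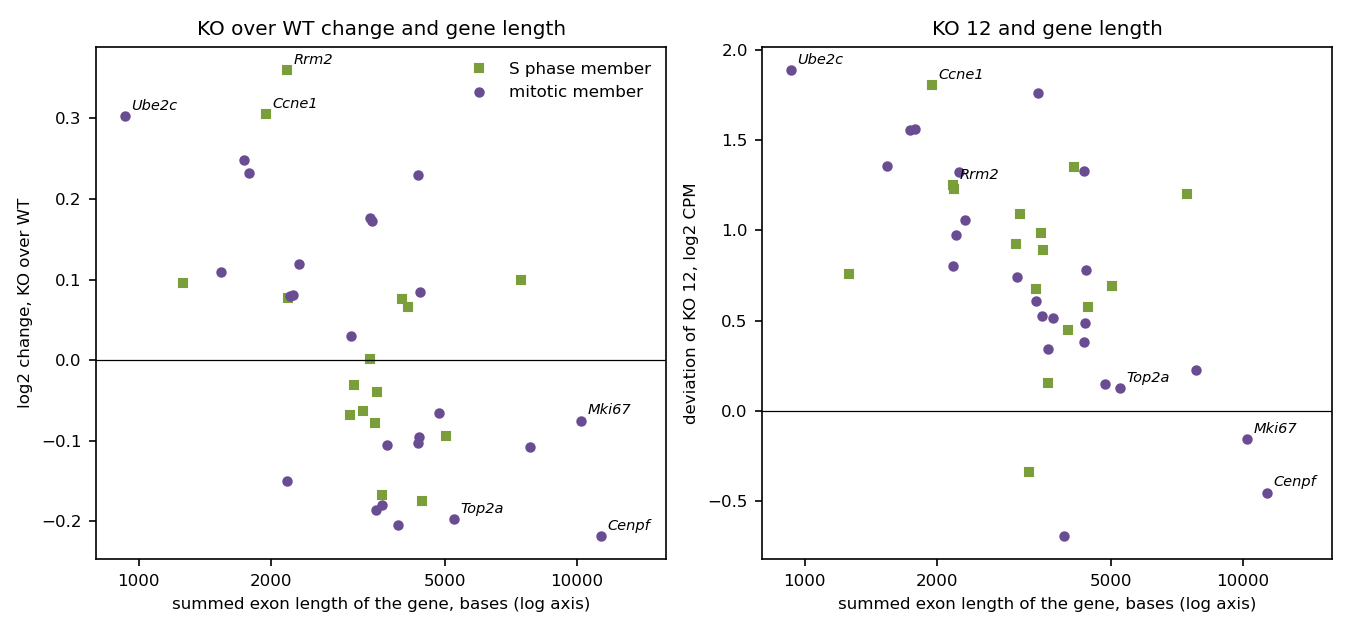
Left, log2 change KO over WT of the 40 genes against summed exon length in bases (log axis); right, deviation of library KO 12 in log2 CPM against the same length. Squares are S phase and circles mitotic genes; both panels slope downward, from 0.30 and 1.89 for Ube2c to -0.22 and -0.45 for Cenpf.

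In some tumours the median gene of a chromosome stood apart, and values of the genes located there are given beside it. On chromosome 7, with Mki67, Ccne1, Rrm1, Plk1 and Prc1, the median gene of KO 2 lay 0.30 above the mean of the libraries (log2), and the deviations there were 0.54 for Mki67, 0.47 for Plk1, 0.42 for Prc1, 0.38 for Ccne1 and 0.37 for Rrm1. In WT 24 that median was 0.25 higher, and these genes lay between 0.16 (Ccne1) and 0.39 (Mki67). In WT 19 it was 0.22 higher, and they lay between -0.43 (Prc1) and -0.07 (Ccne1). On chromosome 3 the median gene was 0.48 higher in KO 9 and 0.44 higher in KO 10. There, Cenpe was at 0.30 in KO 9 and -0.10 in KO 10, and Ccna2 at -0.13 and 0.08, beside a mitotic median of -0.37 in each tumour. On chromosome 11, with Top2a, Cdc6, Aurkb and Birc5, the median gene was 0.35 higher in WT 19 and 0.23 higher in WT 23. In WT 19 these genes lay between -0.20 (Top2a) and 0.10 (Cdc6), and in WT 23 between 0.49 (Cdc6) and 1.35 (Aurkb). In WT 13 the median gene of chromosome 11 was 0.21 higher, and they lay between -1.43 (Birc5) and -1.04 (Aurkb). On chromosome 16, with Mcm4, the median gene was 0.34 higher in WT 22, 0.25 higher in WT 13 and 0.11 higher in WT 19. Mcm4 was at 0.75, -0.50 and -0.08 there. With chromosome medians as offsets, 0 of 40 genes were called, and the log2 change was 0.07 in place of 0.18 for Ccna2 and -0.12 in place of -0.20 for Top2a. For Mcm4 it was -0.08 in place of -0.17, and for Cenpe -0.23 in place of -0.11. The part of these shifts in the levels of the genes was not tested beyond that.

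Other genes of the pathway were counted in the same fit. Of 42 further genes of the replication machinery, 52 of the mitotic apparatus and 18 E2F, pocket protein and MuvB genes, all were tested and 0 were called by edgeR, with 2, 1 and 3 at an unadjusted p under 0.05 beside 18.9% of all genes tested. Their median log2 changes were 0.01, -0.00 and 0.00. Cks1b, the small subunit of cyclin-dependent kinases, had the smallest p: 48.8, 65.0 and 139 CPM in KO against 41.2, 54.5 and 67.8 CPM in WT, log2 change 0.38 ± 0.13, p = 0.00821, edgeR adjusted p = 0.155. Its exon length is 757 bases and its highest KO tumour was KO 12. Anln, a scaffold of the cleavage furrow, came next in that list at -0.36 ± 0.22 (edgeR adjusted p = 0.353).

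In the replication list, Rpa3, a subunit of the single-strand binding protein, had a log2 change of 0.25 ± 0.12 and Orc5, of the origin recognition complex, one of 0.14 ± 0.07 (edgeR adjusted p = 0.262 and 0.263). In the E2F list, Rbbp4, a histone chaperone shared by MuvB, had a log2 change of 0.18 ± 0.07 and E2f5, a repressor E2F, one of 0.22 ± 0.09 (edgeR adjusted p = 0.186 and 0.215). For each, 11 of 12 KO tumours lay above the WT median, a count with no share over all genes beside it. Genes within 10 Mb of Nr0b2 on chromosome 4 share that segment with the targeted gene, and Rbbp4 is one of them. The others were E2f2 at 0.35 ± 0.16, Rpa2 at 0.25 ± 0.17, Cdca8 at 0.23 ± 0.22 and Clspn at -0.20 ± 0.21 (edgeR adjusted p = 0.249, 0.432, 0.578 and 0.606). None of the 40 genes lies within that distance.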

How the data were processed

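The members and gene lists were chosen with earlier results of these data known. The deposited counts are whole reads per gene for 24 libraries, made by the authors with featureCounts 2.0.0 on a GRCm39 annotation, per the file headers, with no strand option; STAR and Subread are named in the submitters' processing notes, without versions in the sources used here. The authors' deposited table holds log2 fold changes and log2 CPM, an F score with a signed fold score, and p-values, raw and adjusted. It was used for gene symbols and for the members' values.

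The counts of all genes passed through filterByExpr and TMM scaling and were fitted with edgeR 4.0.16 in R 4.3.3 (quasi-likelihood test, two-sided, Benjamini-Hochberg adjustment over 15820 genes, threshold 0.05). Levels are CPM on the TMM-scaled library sizes, and log2 CPM uses a prior count of 2. A count of 3 in a library equals 0.0789 to 0.16 CPM of the library total. The members' lowest count in any library was 55, for Ccne2, and counting error is the only error such floors cover. Correlations and the spread of Mki67 used permutation tests with 100000 resamples. The genes described in full were Mki67 and, in each role, the member of highest level per length and that of smallest p; Mcm4, Cenpe, Birc5, Aurkb and Kif23 were added after their values were seen. Promoter letters were matched in RefSeq sequences of GRCm38.p6, joined to the genes by NCBI gene ID. The fit was tested on simulated data. Other settings tried were upper-quartile or RLE scaling, voom with sample weights (limma 3.58.1), DESeq2 1.42.0, other filters, a threshold of 0.1, robust dispersion, a prior count of 0.5, length and chromosome offsets, and leaving out libraries. No batch is labelled.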

Additional observations from a re-analysis of the deposited data

How the results depend on the processing

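The call of 0 of the 40 genes held under all 36 alternatives, including DESeq2, limma voom, a threshold of 0.1 and leaving out each library, while over all genes edgeR called 50, voom 69 and DESeq2 418. The number of genes with a positive change did move, from 10 of 40 without KO 12 to 28 without WT 23 and 37 with voom quality weights. With voom all 24 mitotic genes were positive. The S phase and mitotic medians were -0.10 and -0.09 without KO 12, 0.04 and 0.12 without WT 23, and 0.09 and 0.14 with voom. The sign of the medians is therefore not fixed. Without WT 13 and WT 23 together, chosen after seeing the data, 19 were positive. The SD of Mki67 was lower in KO in all 30 settings and passed the test in none, with a difference of -0.218 to -0.0326 when libraries were left out singly.

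The count of genes with the larger SD in WT, 29 of 40, was 27 without WT 23 (35.8% of all genes), 13 without WT 13 and WT 23 (32.8%), and 39 without KO 11 and KO 12 (69.0%). The correlations with Mki67 changed sides of the threshold. For Mcm2 in KO, r was 0.766 with the length trend removed and 0.718 without KO 11 and KO 12, both now past it, and 0.479 to 0.744 leaving out single libraries. For Ptprc in KO, it was -0.675 and -0.691 under the same settings, both now past it, and -0.679 to -0.314 leaving out single libraries. For Ptprc in WT, it was -0.606 with chromosome medians removed and -0.574 without WT 13 and WT 23, both no longer past it, and -0.681 to -0.589 leaving out single libraries, no longer past it in 9 of 12. For Epcam in KO, it was -0.644 to -0.194 leaving out single libraries, past the threshold without KO 11 alone. The cause was not tested.

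No paired analysis was possible because the replicate numbers run from 1 to 12 in KO and from 13 to 24 in WT and none is shared.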
